A study of Mus musculus with 6 samples.

Results

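The genes described here belong by name to families whose proteins mostly write, remove or read histone marks or move nucleosomes. They were taken by gene name from the deposited expression table: every entry named Kdm, Kmt, Kat, Hdac, Sirt, Prmt, Brd, Chd or Arid followed by a digit, and every entry whose name starts with Setd or Smarc, with Hdac1, Hdac2 and Chd4 left out. The choice used no expression value. It gave 102 entries with 101 gene symbols among 13743 entries in all, in 11 families: 16 Kdm, 5 Kmt, 7 Kat, 9 Hdac, 7 Sirt, 11 Setd, 8 Prmt, 13 Smarc, 7 Brd, 10 Chd and 9 Arid entries. Chd1 stands on 2 entries.

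The cells were mouse embryonic stem cells (ESCs) of a C57/129 background that carry Dgcr8-/- in all 3 groups. Dgcr8 is the RNA-binding partner of Drosha, and cells without it cannot process canonical microRNA precursors. The miR-294 group received 50 nM of a synthetic mimic of miR-294, the siMbd2 group 50 nM of siRNA against Mbd2, and CTR is the control group, which the table calls mock; what the CTR wells were given is not stated. Transfection with DharmaFECT1 began 16 h after plating, RNA was collected 48 h later, and each group has 2 libraries, so n = 2 wherever a pair of values is given. Values are RPKM, reads scaled to transcript length and library size. The labels do not say whether the libraries of a group are separate cultures, and p-values therefore measure only the spread between these libraries, which may be technical. The Dgcr8-/- line is a loss of all canonical microRNAs, and no library of unmodified ESCs is among the samples, so each difference is one within microRNA-deficient cells.

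Histone lysine methyltransferases (most but not all Kmt and Setd genes), acetyltransferases (Kat) and arginine methyltransferases (Prmt) add marks. Lysine demethylases (Kdm), deacetylases (Hdac) and NAD-dependent deacylases (Sirt) take them off, and bromodomain proteins (Brd) bind acetylated lysines. ATP-driven remodelers slide or evict nucleosomes: most Smarc and several Arid genes encode subunits of BAF and related SWI/SNF complexes, and Chd genes encode chromodomain helicases. Mouse ESCs are known for a particular BAF assembly, esBAF, built around Smarca4, Smarcc1, Smarcd1 and Arid1a and poor in Smarca2 and Smarcc2. The main microRNA family of mouse ESCs is miR-290, of which miR-294 is a member, and Mbd2 is a methyl-CpG binding subunit of the NuRD deacetylase complex.

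The target of the siRNA was low where the labels say so. Mbd2 stood at 11.3 and 12.3 RPKM with miR-294, 7.33 and 6.34 with siMbd2 and 26.8 and 27.9 in CTR, which is a log2 change of -1.15 and -1.86 against CTR (limma, adjusted p = 1.36e-05 and 5.05e-05). Dgcr8 was read at 6.66 to 8.44 RPKM in all 6 libraries, and a gene-level value does not show whether the deleted part is present. All 9 ESC markers looked for were in the table, with summed levels of 5733 to 5762 RPKM with miR-294, 6904 to 7259 with siMbd2 and 5971 to 6393 in CTR. Dppa5a, at a mean of 2973, 4545 and 3810 RPKM in that order, makes up most of the sum, and the members moved both ways. With miR-294, Nanog (log2 -0.80), Sox2 (-0.51) and Dppa5a (-0.36) fell, and Utf1 (0.77), Zfp42 (0.65), Pou5f1 (0.52) and Tdgf1 (0.36) rose. With siMbd2, Sox2 (-0.42) and Nanog (-0.33) fell, and Utf1 (0.36), Pou5f1 (0.33), Esrrb (0.30) and Dppa5a (0.26) rose. The 3 neural markers in the table (Tubb3 is not among them) summed to 10.3 to 10.5 RPKM with miR-294, 20.4 to 21.2 with siMbd2 and 21.5 to 22.2 in CTR. Pax6, Sox1 and Nes all fell with miR-294, while with siMbd2 Sox1 fell (-0.76) and Nes rose (0.68). The 3 trophectoderm markers summed to 30.6 to 31.8, 30.8 to 31.3 and 19.9 to 23.3 RPKM in the same order of groups, most of it Krt18. Cdx2 read 0.79 and 0.77 RPKM with miR-294, 0.31 and 0.30 with siMbd2 and 0.20 and 0.20 in CTR. It averaged under 1 RPKM and was not tested. Of the fibroblast list 3 of 8 were in the table, with sums of 3.82 to 4.15, 1.27 to 1.39 and 1.75 to 1.92 RPKM. Most of that was Thy1 (log2 0.83 with miR-294, adjusted p = 9.2e-05), and Col1a1 was at 0.06 to 0.29 RPKM. The 3 mesoderm markers of 4 summed to 3.94 to 4.57, 2.4 to 2.75 and 2.32 RPKM, with Eomes higher with miR-294 (log2 0.84). The 5 primitive endoderm markers summed to 3.13 to 3.23, 2.39 to 2.67 and 3.04 to 3.49 RPKM, and they moved both ways. Gata4 was lower with miR-294 (log2 -0.95). Sox7 read 1.28 and 1.15 RPKM with miR-294 against 0.10 and 0.20 in CTR, and Gata6 0.70 and 0.77 against 0.15 and 0.18. These 2 averaged under 1 RPKM and were not tested, and Sox17 and Pdgfra were at 0.17 RPKM or less. Whether these differences have a part in the results below was not tested. In bulk libraries, a change in the share of cells that express a gene and a change in RNA per cell cannot be told apart. The CTR pair was the less even one, with a median absolute difference between replicates of 0.134 (log2) over the 99 chromatin genes tested, against 0.0525 for the miR-294 pair and 0.0527 for the siMbd2 pair.

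The guide strand of the mimic is shown because its seed defines the matches counted below. The mature mouse sequence is from RefSeq (GRCm38.p6, chr7:3220691-3220712, plus strand), and the capitals mark the seed, bases 2 to 8.
miR-294-3p: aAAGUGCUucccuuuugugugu
A transcript with the 7 letters AGCACTT in its 3′ UTR can pair with the whole seed, and AGCACTTA adds an A opposite the first base of the microRNA. The 7 letters GCACTTA pair with bases 2 to 7 and hold the same A. The next lines show 7 such stretches in the longest annotated 3′ UTRs of members (GENCODE vM21 on GRCm38, transcript strand, 24 bases each), with the match in capitals. The set was chosen to hold the 3 members with the 8-base match and 4 members with AGCACTT that fell with miR-294.
Smarcc2 (chr10:128489811-128489818, plus strand): cctcaagtttgaaaAGCACTTAag
Kmt2a (chr9:44806512-44806519, minus strand): acttcatagggagaAGCACTTAtg
Hdac4 (chr1:91931130-91931137, minus strand): ctaacttcttttctAGCACTTAaa
Kat2b (chr17:53670994-53671000, plus strand): agacttgtaataattAGCACTTtt
Sirt4 (chr5:115478098-115478104, minus strand): gatgtgtctgactgaAGCACTTtg
Arid4a (chr12:71098125-71098131, plus strand): tttcaattttgtggaAGCACTTgc
Kdm5a (chr6:120440513-120440519, plus strand): gtagtacaaggagttAGCACTTcc
The capitals give the position only, and whether the mimic acted at any of these letters was not measured.

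Of the 102 entries, 99 averaged 1 RPKM or more over the 6 libraries and were tested. The member with the highest level was Prmt1, the main asymmetric arginine methyltransferase, at 313 RPKM on average, and the median member stood at 18.1 RPKM. Together the members held 0.547% to 0.609% of the summed RPKM of a library, 2614 to 2749 RPKM in each. Hdac9, Prmt8 and Smarca1 were below the minimum. Prmt8, a brain-type arginine methyltransferase, read 1.64 and 1.87 RPKM with miR-294, 0.48 and 0.35 with siMbd2 and 0.72 and 0.73 in CTR. Smarca1, an ISWI ATPase, read 1.34 and 1.18 RPKM with miR-294, 0.62 and 0.74 with siMbd2 and 0.73 and 1.02 in CTR. Hdac9 stayed between 0.11 and 0.36 RPKM in the 6 libraries.

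With miR-294, 15 of the 99 members (15.2%) rose and 36 (36.4%) fell against CTR at an adjusted p under 0.05, where 27.7% of all 11428 tested genes rose and 36.8% fell. The median log2 change of RPKM + 1 was -0.11 over the members and -0.077 over all tested genes, and the median size of change without sign was 0.22 over the members and 0.34 over all. With a change of at least 1.5-fold required, 3 members (3.03%) rose and 13 (13.1%) fell, beside 9.54% and 16.7% of all genes. The split depended on scaling. After median-of-ratios scaling 24 members rose and 28 fell, and after quantile normalization 24 rose and 34 fell. Of the 51 calls, 36 held under both of these scalings and 31 under every alternative in which the gene was tested. The 31 include Arid3a, Arid5a, Hdac7 and Smarca2, which were not tested with a minimum mean of 5 RPKM. Without 1 of the 6 libraries the counts ran from 12 to 24 higher and from 22 to 45 lower, the 24 without CTR replicate 1 and the 22 without miR-294 replicate 2.

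With siMbd2, 14 of the 99 members (14.1%) rose and 8 (8.08%) fell against CTR, where 19.5% of all tested genes rose and 14.9% fell. The median log2 change was 0.009 over the members and 0.023 over all tested genes, and the median size without sign was 0.11 over the members and 0.18 over all. At 1.5-fold 1 member rose (Setd1b) and 2 fell (Smarca2 and Arid5a), 1.01% and 2.02% of 99, beside 3.25% and 3.07% of all genes. After quantile normalization 10 rose and 14 fell, and after median-of-ratios scaling 14 rose and 10 fell. These calls rested on few libraries. Without siMbd2 replicate 1, 6 members rose and 2 fell, and without siMbd2 replicate 2, 3 rose and 0 fell. Without CTR replicate 1, 22 rose, and without CTR replicate 2, 16 fell. Hdac3, Kdm2a and Setd1b were the 3 of 22 calls that held under every alternative tried. The miR-294 and siMbd2 comparisons share the CTR libraries, so a deviation of CTR moves both in the same direction, and only the direct comparison below sets the treatments against each other.

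**Figure D1:**
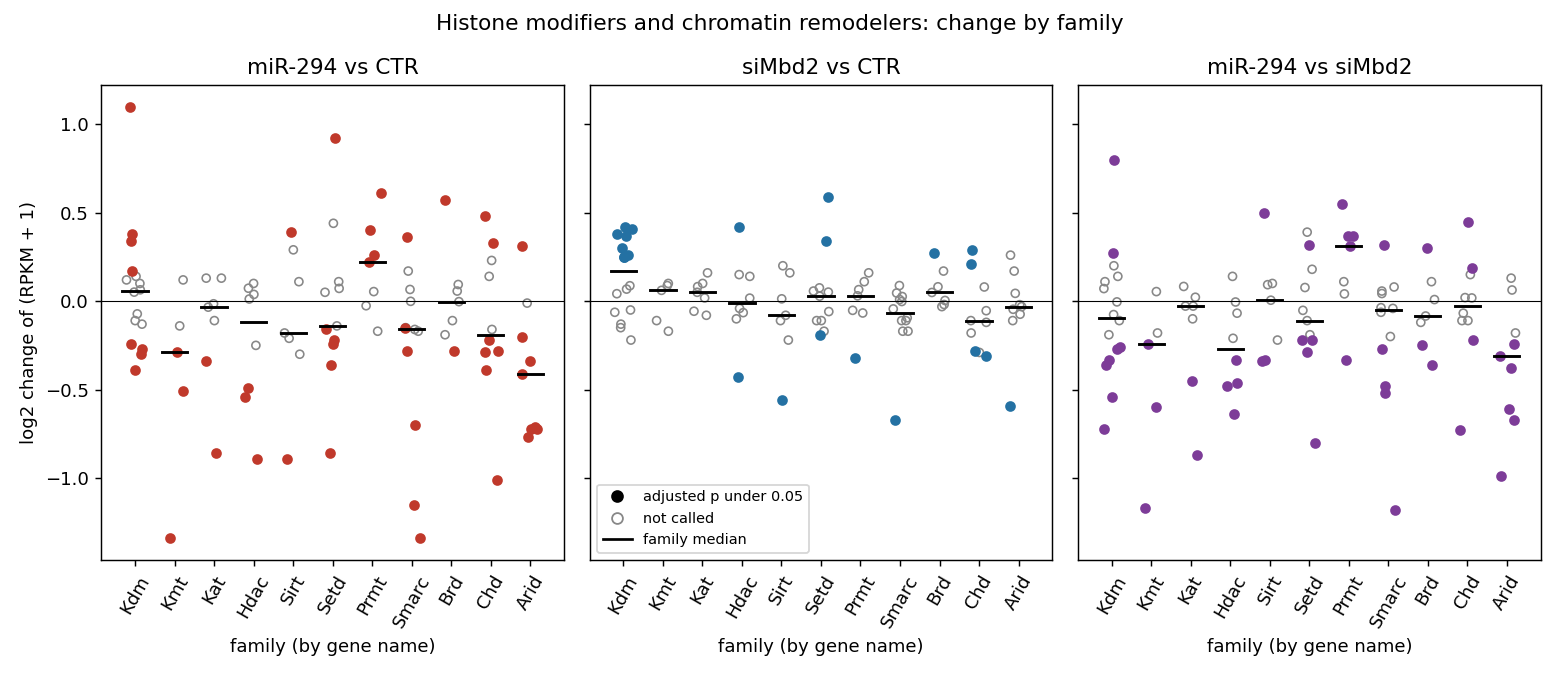
Log2 change of RPKM + 1 (vertical axis) of the 99 tested members by gene family (horizontal axis) with miR-294 and with siMbd2 set against CTR and for miR-294 vs siMbd2. Each dot is a member, filled where the adjusted p was under 0.05, and bars are family medians; the changes ran from -1.34 to 1.10 with miR-294 and from -0.67 to 0.59 with siMbd2.

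Among the families named as writers, the Kmt2 genes encode MLL-type proteins, several of which methylate histone H3 lysine 4 (H3K4). With miR-294, 3 of 5 Kmt members (60%) fell and 0 rose, with a family median of -0.29. Over all tested genes 36.8% fell and 27.7% rose, with a median of -0.077. After quantile normalization 2 Kmt members fell and 1 rose. Kmt2e (chr5:23434441-23504235) is a PHD- and SET-domain protein that is counted here by its name. It read 2.94 and 2.88 RPKM with miR-294, 8.03 and 7.56 with siMbd2 and 8.84 and 8.99 in CTR. The miR-294 libraries lay well below the other 4, a log2 change of -1.34 ± 0.0805 (SE) against CTR (limma, adjusted p = 4.89e-06) and -1.17 against siMbd2 (adjusted p = 1.34e-05). Its longest annotated 3′ UTR holds none of the 3 matches. Kmt2a, the MLL1 methyltransferase, has the 8-base match printed above and read 7.87 and 7.61 RPKM with miR-294, 12.1 and 12.4 with siMbd2 and 11.6 and 11.4 in CTR (log2 -0.51, adjusted p = 0.000334). Kmt2c, an enhancer H3K4 methyltransferase, fell by 0.29 on the log2 scale (adjusted p = 0.00603; 0.0649 after quantile normalization). Its close paralogue Kmt2d was at 6.64 and 5.63 RPKM with miR-294, 5.82 and 5.89 with siMbd2 and 6.09 and 5.09 in CTR. It passed no test as deposited, and with miR-294 it did after quantile normalization (log2 0.34, adjusted p = 0.0152). Kmt2b, the highest of the family at 25.6 RPKM, had an adjusted p of 0.102 for miR-294 vs CTR, and 0.0312 without CTR replicate 2. With siMbd2, 0 of 5 Kmt members were called by limma, also at an unadjusted p under 0.05, and their log2 changes lay between -0.17 and 0.10.

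Of the 11 Setd members, 1 rose and 5 fell with miR-294, against 2 and 3 after median-of-ratios scaling and 2 and 4 after quantile normalization, and 1 fell without miR-294 replicate 2. The second that rose under these scalings was Setd4 (log2 0.44, adjusted p = 0.0539 as deposited), which also passed without CTR replicate 1 or either siMbd2 library. The 5 lower as deposited are 45.5% of the family and the 1 higher 9.09%, beside 36.8% and 27.7% of all tested genes. The one that rose as deposited was Setd1b (chr5:123142193-123168629), a catalytic subunit of a COMPASS complex that methylates H3K4. It read 10.6 and 9.35 RPKM with miR-294, 7.42 and 8.08 with siMbd2 and 4.72 and 4.87 in CTR, with no overlap between the groups. The log2 change was 0.92 ± 0.0895 with miR-294 (adjusted p = 4.66e-05) and 0.59 ± 0.0895 with siMbd2 (adjusted p = 0.0021). The direct difference of 0.32 had an adjusted p of 0.0141, which became 0.131 without miR-294 replicate 1 and 0.116 without siMbd2 replicate 1. Setd1a, which occupies the same place in the sister complex, passed no test, at 26.3 and 20.8 RPKM with miR-294, 21.4 and 22.9 with siMbd2 and 23.2 and 20.2 in CTR. Setd7, a monomethyltransferase of H3K4 and of many other proteins, read 5.96 and 6.20 RPKM with miR-294, 11.1 and 11.6 with siMbd2 and 11.97 and 11.77 in CTR (log2 -0.86 against CTR, adjusted p = 2.52e-05). The other 4 that fell with miR-294 had log2 changes between -0.16 and -0.36. They were Setd5, Setd3, Setdb2 and the H4K20 methyltransferase Setd8. None of the 4 held under every alternative: without miR-294 replicate 2 the adjusted p was 0.0904 for Setd5, 0.213 for Setd3, 0.192 for Setdb2 and 0.173 for Setd8.

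Setdb1, the H3K9 methyltransferase that silences endogenous retroviruses in ESCs, rose with siMbd2. It read 34.1 and 33.5 RPKM with miR-294, 40.5 and 42.3 with siMbd2 and 32.6 and 32.5 in CTR. The siMbd2 libraries were the high ones, by a log2 of 0.34 against CTR (adjusted p = 0.00364; 0.0581 without siMbd2 replicate 2), and miR-294 stood below siMbd2 by 0.29 (adjusted p = 0.00311). The log2 change of Setd5 with siMbd2 was -0.19, with an adjusted p of 0.0489 that was above 0.05 in 9 of the alternatives tried.

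Of the 7 acetyltransferase genes, 2 (28.6%) fell with miR-294 and 0 rose, beside 36.8% and 27.7% of all tested genes. After median-of-ratios scaling 2 rose and 2 fell, and after quantile normalization 2 rose and 3 fell. Without CTR replicate 1, 2 rose, 4 fell when CTR replicate 2 was left out, and 1 fell when miR-294 replicate 2 was. Kat2b, also known as PCAF, is a transcriptional coactivator with the 7-base match shown above. It read 16.9 and 18.5 RPKM with miR-294, 32.7 and 33.8 with siMbd2 and 31.3 and 34.5 in CTR. The miR-294 pair lay well below the other 4 libraries, a log2 change of -0.86 ± 0.0744 (adjusted p = 2.58e-05) against CTR and -0.87 against siMbd2 (adjusted p = 3.77e-05). Kat2a (GCN5), its closest relative, differed little at 40.2 and 39.1 RPKM with miR-294, 39.0 and 39.0 with siMbd2 and 44.2 and 37.3 in CTR. Kat6a (MOZ) read 11.7 and 11.2 RPKM with miR-294, 15.7 and 16.3 with siMbd2 and 13.8 and 15.9 in CTR, a log2 change of -0.34 (adjusted p = 0.00664; 0.0955 after quantile normalization and 0.0536 without miR-294 replicate 2). The member with the highest level, Kat7 (HBO1), was at 74.1 and 74.8 RPKM with miR-294, 79.0 and 80.4 with siMbd2 and 75.8 and 74.7 in CTR. Kat5 (TIP60), at 12.5 to 15.5 RPKM, and Kat6b, at 45.6 to 51.8 RPKM, passed no test as deposited. With miR-294, Kat5 passed under both other scalings (higher), and Kat6b and Kat7 passed after quantile normalization (lower, adjusted p = 0.0133 and 0.0143). With siMbd2, limma called 0 of 7 as deposited, none of them at an unadjusted p under 0.05 either. After quantile normalization Kat6b was lower with siMbd2 (log2 -0.17, limma, adjusted p = 0.0425). The siMbd2 change of Kat2a went from -0.057 to -0.18 without CTR replicate 2. That of Kat5 went from 0.16 to 0.23 without CTR replicate 1.

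Of the arginine methyltransferases, 4 of 7 tested (57.1%) rose and 0 fell with miR-294, where 27.7% of all tested genes rose and 36.8% fell. The Prmt counts were 4 and 0 under both other scalings, although after quantile normalization Prmt6 (adjusted p = 0.0301) stood in the place of Prmt1. Without either miR-294 library 2 rose, and 2 of the 4 calls held under every alternative tried. Their median log2 change was 0.22. Prmt5 (chr14:54507187-54517525) makes symmetric dimethylarginine on histones and spliceosomal proteins and is needed for pluripotency in the mouse. It read 78.5 and 75.7 RPKM with miR-294, 51.2 and 53.7 with siMbd2 and 50.7 and 49.4 in CTR. The siMbd2 and CTR libraries lay together and the miR-294 pair above them, by a log2 of 0.61 ± 0.0571 against CTR (adjusted p = 3.68e-05) and 0.55 against siMbd2 (adjusted p = 9.83e-05). Prmt3, a mainly cytoplasmic enzyme that modifies a ribosomal protein, showed the same order at 42.3 and 42.6 RPKM with miR-294, 32.6 and 32.7 with siMbd2 and 32.5 and 31.5 in CTR (log2 0.40 against CTR, adjusted p = 0.000366). Prmt7 rose by a log2 of 0.26 (adjusted p = 0.0294; 0.162 without miR-294 replicate 2). Prmt1 read 341 and 334 RPKM with miR-294, 309 and 314 with siMbd2 and 310 and 270 in CTR. Its log2 change was 0.22 (adjusted p = 0.021) as deposited and -0.067 after quantile normalization (adjusted p = 0.352). Prmt6 fell with siMbd2, at 8.49 and 9.25 RPKM with miR-294, 6.42 and 6.85 with siMbd2 and 8.48 and 8.52 in CTR (log2 -0.32, adjusted p = 0.0189; 0.137 without siMbd2 replicate 1).

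**Figure D2:**
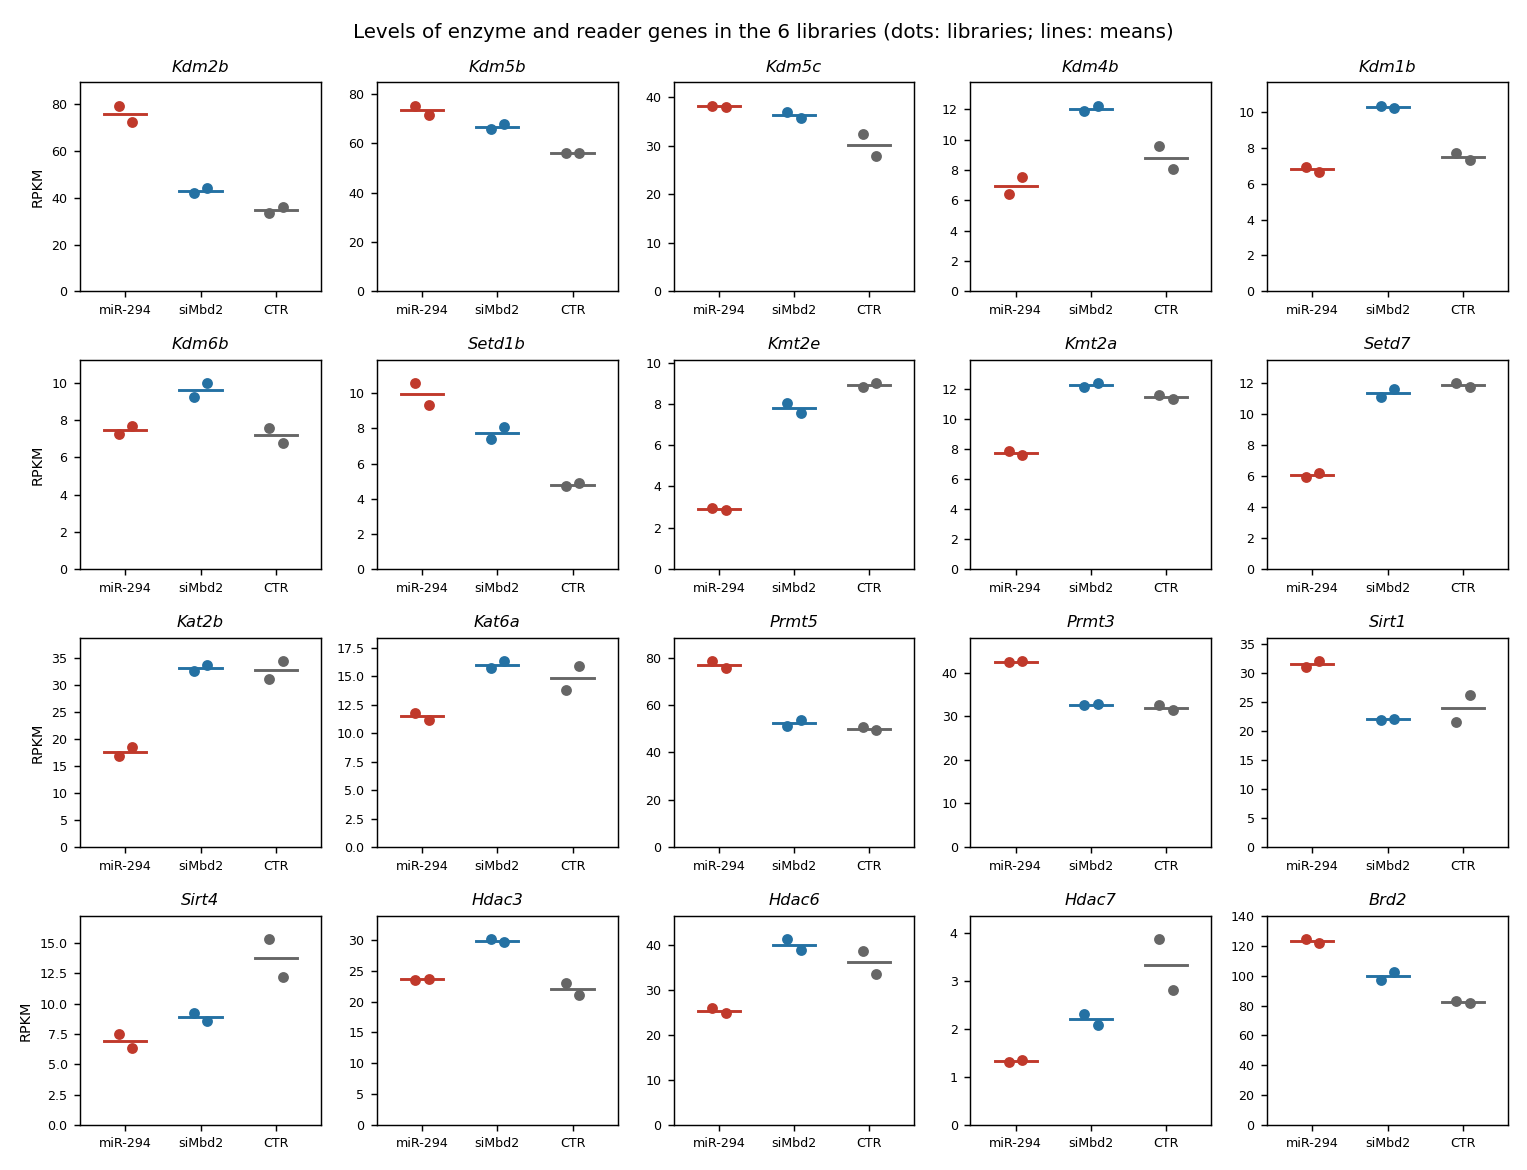
RPKM (vertical axis, from 0) of 20 enzyme and reader genes in the miR-294, siMbd2 and CTR libraries. Dots are libraries and lines group means (n = 2); Kdm2b and Prmt5 are highest with miR-294, Kdm4b, Kdm1b and Hdac3 with siMbd2, and Kmt2e and Kat2b are lowest with miR-294.

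Among the erasers, the demethylases were the family with the most members called with siMbd2: 8 of 16 (50%) rose and 0 fell, with a median log2 change of 0.17, where 19.5% of all tested genes rose and 14.9% fell. The 8 were Kdm1b, Kdm2a, Kdm2b, Kdm3a, Kdm4b, Kdm5b, Kdm5c and Kdm6b, with log2 changes of 0.25 to 0.42. They do not share a substrate: they act on methylated H3K4 (Kdm1b, Kdm5b, Kdm5c), H3K36 (Kdm2a, Kdm2b), H3K9 (Kdm3a, Kdm4b) and H3K27 (Kdm6b). The count was 8 and 0 after median-of-ratios scaling and 5 and 1 after quantile normalization, and it ran from 1 to 8 higher without 1 library, with 2 left without siMbd2 replicate 1 and 1 without siMbd2 replicate 2. With miR-294, 4 of the 16 (25%) rose and 4 (25%) fell, beside 27.7% and 36.8% of all tested genes. The Kdm counts were 6 and 2 after median-of-ratios scaling and 5 and 3 after quantile normalization, and fewer members fell without miR-294 replicate 1.

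Kdm2b (chr5:122870665-122989823), which binds unmethylated CpG islands and brings variant Polycomb complexes to them in mouse ESCs, had the highest log2 change of any member with miR-294. It read 79.5 and 72.4 RPKM with miR-294, 42.0 and 44.0 with siMbd2 and 33.4 and 36.2 in CTR. The 3 groups did not overlap. The log2 change was 1.10 ± 0.0707 with miR-294 (adjusted p = 6.72e-06), 0.30 ± 0.0707 with siMbd2 (adjusted p = 0.0134; 0.119 without siMbd2 replicate 2) and 0.80 between miR-294 and siMbd2 (adjusted p = 4.36e-05). Its paralogue Kdm2a, which has GCACTTA in its 3′ UTR, read 27.65 and 27.98 RPKM with miR-294, 33.1 and 34.4 with siMbd2 and 25.4 and 26.3 in CTR. Here the siMbd2 libraries were the high ones (log2 0.37 against CTR, adjusted p = 0.00284), and the miR-294 change of 0.10 had an adjusted p of 0.166 as deposited. The ratio of Kdm2b to Kdm2a was 2.87 and 2.59 with miR-294, 1.27 and 1.28 with siMbd2 and 1.31 and 1.38 in CTR.

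The H3K4 demethylases of the Kdm5 group moved in both directions with miR-294. Kdm5b, an ESC-rich member, read 75.4 and 71.7 RPKM with miR-294, 66.0 and 67.7 with siMbd2 and 56.2 and 56.1 in CTR, a log2 change of 0.38 with miR-294 (adjusted p = 0.00039) and 0.25 with siMbd2 (adjusted p = 0.0108; 0.111 without siMbd2 replicate 2). The X-linked Kdm5c read 38.3 and 38.1 RPKM with miR-294, 36.9 and 35.7 with siMbd2 and 32.35 and 27.96 in CTR, a log2 change of 0.34 (adjusted p = 0.00448) and 0.26 (adjusted p = 0.0282; 0.158 without siMbd2 replicate 1). Kdm5a, with AGCACTT on 2 sites of its 3′ UTR, read 20.3 and 21.8 RPKM with miR-294, 25.2 and 25.6 with siMbd2 and 27.2 and 28.7 in CTR. Its log2 change with miR-294 was -0.39 (adjusted p = 0.000989) and the level stood 0.26 below siMbd2 (adjusted p = 0.0102), a call that ended under both other scalings.

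Several demethylases set the treatments apart. Kdm4b, which acts on trimethylated H3K9, read 6.39 and 7.50 RPKM with miR-294, 11.9 and 12.2 with siMbd2 and 9.55 and 8.07 in CTR. It was the one member called in opposite directions against CTR, at a log2 of -0.30 with miR-294 (adjusted p = 0.0296) and 0.42 with siMbd2 (adjusted p = 0.0161). Both of those calls ended when a library was left out (0.211 for miR-294 without its replicate 1, and 0.109 for siMbd2 without its replicate 2), and the miR-294 call also ended under both other scalings. The direct difference of -0.72 held under every alternative (adjusted p = 0.000514). Kdm1b (LSD2) read 6.93 and 6.66 RPKM with miR-294, 10.4 and 10.3 with siMbd2 and 7.70 and 7.32 in CTR, with a direct difference of -0.54 (adjusted p = 0.000509). It rose by a log2 of 0.41 with siMbd2 (adjusted p = 0.00513; 0.0524 without siMbd2 replicate 2). The H3K27 demethylase Kdm6b read 7.23 and 7.69 RPKM with miR-294, 9.26 and 9.97 with siMbd2 and 7.56 and 6.79 in CTR (log2 0.38 with siMbd2, adjusted p = 0.012; 0.113 without siMbd2 replicate 2).

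The other H3K27 demethylase, Kdm6a (UTX), read 11.3 and 11.1 RPKM with miR-294, 13.2 and 12.6 with siMbd2 and 12.9 and 13.9 in CTR. It fell by 0.24 with miR-294 (adjusted p = 0.0207), and this call ended under both other scalings and without either miR-294 library. Kdm3b fell by 0.27 (adjusted p = 0.00541), at 23.0 and 22.9 RPKM with miR-294, 29.6 and 29.8 with siMbd2 and 29.0 and 26.9 in CTR. Kdm1a (LSD1), the highest of the family, passed no test as deposited, at 72.7 and 72.6 RPKM with miR-294, 79.0 and 78.4 with siMbd2 and 74.8 and 78.0 in CTR. After quantile normalization it was lower with miR-294 than in CTR (log2 -0.24, adjusted p = 0.00572) and than with siMbd2 (log2 -0.19, adjusted p = 0.0177). The second of these also passed with the CTR libraries left out (adjusted p = 0.0173). Kdm4a read 29.0 and 28.6 RPKM with miR-294, 23.8 and 23.6 with siMbd2 and 28.4 and 24.5 in CTR. It differed between miR-294 and siMbd2 by 0.27 (adjusted p = 0.0157; 0.0869 without miR-294 replicate 1).

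Deacetylases: of the 8 Hdac genes tested, 3 (37.5%) fell and 0 rose with miR-294, beside 36.8% and 27.7% of all tested genes. The family median of -0.12 was -0.06 after median-of-ratios scaling and 0.047 after quantile normalization, each with 3 lower and 1 higher. Class IIa enzymes shuttle between nucleus and cytoplasm and repress through MEF2 factors. Hdac7, one of them, read 1.31 and 1.35 RPKM with miR-294, 2.32 and 2.09 with siMbd2 and 3.87 and 2.81 in CTR (log2 -0.89 with miR-294, adjusted p = 0.000317; -0.43 with siMbd2, adjusted p = 0.0291, and 0.162 without siMbd2 replicate 2). Hdac5, another, read 15.6 and 14.5 RPKM with miR-294, 22.4 and 20.4 with siMbd2 and 24.7 and 20.3 in CTR (log2 -0.54 with miR-294, adjusted p = 0.00141). Hdac4, the third of this class, holds the 8-base match and a further AGCACTT, yet its level was 12.8 and 11.4 RPKM with miR-294, 11.8 and 12.5 with siMbd2 and 13.4 and 10.7 in CTR. Its log2 change with miR-294 was 0.012 and the groups overlapped. Hdac6, the cytoplasmic tubulin deacetylase, read 25.8 and 24.8 RPKM with miR-294, 41.2 and 38.8 with siMbd2 and 38.7 and 33.4 in CTR (log2 -0.49 against CTR, adjusted p = 0.000751; -0.64 against siMbd2, adjusted p = 0.000244).

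Hdac3, the catalytic subunit of the NCoR and SMRT corepressor complexes, rose with siMbd2. It read 23.5 and 23.7 RPKM with miR-294, 30.1 and 29.6 with siMbd2 and 23.0 and 21.1 in CTR. The siMbd2 pair stood apart from the other 4 libraries, at a log2 of 0.42 ± 0.0661 against CTR (adjusted p = 0.00243), and miR-294 was 0.33 below siMbd2 (adjusted p = 0.00308). Both calls held under every alternative tried. The remaining Hdac genes, Hdac8, Hdac10 and Hdac11, were at 1.36 to 6.11 RPKM and passed no test as deposited. After quantile normalization Hdac8 was higher with miR-294 than in CTR (adjusted p = 0.0348) and Hdac11 higher than with siMbd2 (adjusted p = 0.0446), and Hdac10 was lower with miR-294 without CTR replicate 2 (adjusted p = 0.00549).

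Sirtuins remove acetyl and other acyl groups with NAD, Sirt1 mainly in the nucleus and Sirt4 in mitochondria. Of 7 members, 1 rose and 1 fell with miR-294 (14.3% each), beside 27.7% and 36.8% of all tested genes. With siMbd2, 0 rose and 1 fell (14.3%), beside 19.5% and 14.9%. With miR-294, 2 rose after median-of-ratios scaling and 3 after quantile normalization, 3 rose without CTR replicate 1, and 4 fell without CTR replicate 2. With siMbd2, 2 rose and 2 fell without CTR replicate 1, and 3 fell without CTR replicate 2. Sirt1 read 31.0 and 32.1 RPKM with miR-294, 22 and 22.1 with siMbd2 and 21.7 and 26.3 in CTR (log2 0.39 against CTR, adjusted p = 0.00493; 0.50 against siMbd2, adjusted p = 0.00165). Sirt4, with AGCACTT in its 3′ UTR, read 7.46 and 6.36 RPKM with miR-294, 9.24 and 8.59 with siMbd2 and 15.3 and 12.2 in CTR. Both treated pairs lay below CTR, by a log2 of -0.89 ± 0.118 with miR-294 (adjusted p = 0.000231) and -0.56 ± 0.118 with siMbd2 (adjusted p = 0.00796; 0.0698 without siMbd2 replicate 2). Sirt2, Sirt3, Sirt5, Sirt6 and Sirt7 passed no test against CTR as deposited.

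Among the readers, Brd2 and Brd3 are BET proteins that carry acetylated histone signals to the transcription machinery. Of 7 Brd members, 1 rose and 1 fell with miR-294 (14.3% each), beside 27.7% and 36.8% of all tested genes. After quantile normalization 1 rose and 2 fell. With siMbd2, 1 rose (14.3%) and 0 fell, beside 19.5% and 14.9%. Brd2 (chr17:34112023-34122634) read 125 and 122 RPKM with miR-294, 96.9 and 103 with siMbd2 and 83.0 and 81.9 in CTR. The groups did not overlap, with a log2 change of 0.57 ± 0.0552 with miR-294 (adjusted p = 4.31e-05) and 0.27 with siMbd2 (adjusted p = 0.00697; 0.0959 without siMbd2 replicate 2). The direct difference was 0.30 (adjusted p = 0.00187). Brd3 was at 29.4 to 32.8 RPKM in all libraries. Brd1, a scaffold of HBO1 and MOZ acetyltransferase complexes, read 20.7 and 19.4 RPKM with miR-294, 23.9 and 24.2 with siMbd2 and 25.4 and 23.8 in CTR (log2 -0.28, adjusted p = 0.00631; 0.0694 without miR-294 replicate 2). Brd9, of the noncanonical BAF complex, did not pass against CTR but differed by -0.36 between miR-294 and siMbd2 (adjusted p = 0.00432; 0.0664 after quantile normalization and 0.0528 without siMbd2 replicate 2).

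Among the remodelers, SWI/SNF complexes use alternative subunits encoded by paralogous genes, and the ratio of such genes within each library is given below as a description. Of 12 Smarc genes tested, 1 (8.33%) rose and 5 (41.7%) fell with miR-294, beside 27.7% and 36.8% of all tested genes. The Smarc counts were 1 and 4 after median-of-ratios scaling and 1 and 7 after quantile normalization. They cover all tested genes named Smarc, also those outside SWI/SNF complexes such as the ISWI ATPase Smarca5. Without 1 library 3 to 6 fell, the 3 without miR-294 replicate 2, and 2 rose without either CTR library or miR-294 replicate 1. Smarcc2 (chr10:128459248-128490482), which encodes the scaffold subunit BAF170, read 6.35 and 6.05 RPKM with miR-294, 15.3 and 15.3 with siMbd2 and 18.2 and 16.4 in CTR. That is 35.9% of the CTR mean with miR-294, a log2 change of -1.34 ± 0.0784 (adjusted p = 4.31e-06). The siMbd2 change of -0.17 had an adjusted p of 0.129, and the direct difference was -1.18 (adjusted p = 1.19e-05). The AGCACTTA printed above begins at base 839 of its 1200-base 3′ UTR. Smarcc1, the paralogous scaffold BAF155, read 62.5 and 60.5 RPKM with miR-294, 63.6 and 62.5 with siMbd2 and 68.6 and 67.7 in CTR (log2 -0.15, adjusted p = 0.0402; 0.215 after median-of-ratios scaling and 0.238 without miR-294 replicate 2). The ratio of Smarcc1 to Smarcc2 was 9.84 and 10.0 with miR-294, 4.17 and 4.10 with siMbd2 and 3.77 and 4.13 in CTR.

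The ATPase of the complex is either Smarca2 or Smarca4. Smarca2 (BRM; chr19:26605050-26778322) read 1.94 and 1.94 RPKM with miR-294, 3.67 and 2.61 with siMbd2 and 6.12 and 5.01 in CTR. Both treated pairs lay below CTR, at log2 -1.15 ± 0.137 with miR-294 (adjusted p = 0.000128) and -0.67 ± 0.137 with siMbd2 (adjusted p = 0.00708; 0.0612 without siMbd2 replicate 2). The difference of -0.48 between the treatments (adjusted p = 0.0155) ended without siMbd2 replicate 1 (adjusted p = 0.127). Smarca4 (BRG1) read 52.6 and 50.5 RPKM with miR-294, 54.6 and 53.1 with siMbd2 and 62.2 and 53.3 in CTR, with an adjusted p of 0.105 for miR-294 as deposited, 0.00948 after quantile normalization and 0.00212 without CTR replicate 2. The ratio of Smarca4 to Smarca2 was 27.1 and 26.0 with miR-294, 14.9 and 20.3 with siMbd2 and 10.2 and 10.6 in CTR.

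In the Smarcd subunits, the 2 main genes moved in opposite directions with miR-294. Smarcd1 (BAF60A) read 36.0 and 33.5 RPKM with miR-294, 27.1 and 28.2 with siMbd2 and 28.61 and 25.01 in CTR (log2 0.36, adjusted p = 0.00348). Smarcd2 (BAF60B) read 17.3 and 17.6 RPKM with miR-294, 26.0 and 25.2 with siMbd2 and 30.5 and 27.5 in CTR (log2 -0.70, adjusted p = 5.33e-05; -0.52 against siMbd2, adjusted p = 0.000356). The ratio of Smarcd1 to Smarcd2 was 2.08 and 1.90 with miR-294, 1.05 and 1.12 with siMbd2 and 0.938 and 0.909 in CTR. Smarcd3 was low in every library, between 1.06 and 1.87 RPKM. Smarcb1, the core subunit BAF47 and the highest of the family, read 82.8 and 81.4 RPKM with miR-294, 79.5 and 78.3 with siMbd2 and 82.7 and 74.4 in CTR. Smarca5, the ISWI ATPase, read 65.1 and 65.8 RPKM with miR-294, 66.6 and 68.2 with siMbd2 and 67.3 and 78.3 in CTR; neither gene passed a test as deposited.

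Arid proteins share a DNA-binding domain, and Arid1a, Arid1b and Arid2 define which SWI/SNF complex is formed. With miR-294, 7 of 9 Arid members fell (77.8%) and 1 rose (11.1%), with a median of -0.41. Over all tested genes 36.8% fell and 27.7% rose, with a median of -0.077. After median-of-ratios scaling 6 Arid members fell and after quantile normalization 5, with 1 higher each time. Without 1 library, 5 to 7 fell. Arid1b read 4.34 and 4.19 RPKM with miR-294, 7.40 and 7.38 with siMbd2 and 7.61 and 7.71 in CTR (log2 -0.72, adjusted p = 8.19e-05; -0.67 against siMbd2, adjusted p = 0.000169). Arid1a, its alternative in the BAF complex, rose, at 45.9 and 43.3 RPKM with miR-294, 39.6 and 41.5 with siMbd2 and 37.0 and 34.7 in CTR (log2 0.31, adjusted p = 0.003). The ratio of Arid1a to Arid1b was 10.6 and 10.3 with miR-294, 5.36 and 5.62 with siMbd2 and 4.86 and 4.51 in CTR. Arid2, of the PBAF complex, fell by 0.34 (adjusted p = 0.0111), and the adjusted p was 0.0846 after quantile normalization and 0.0719 without miR-294 replicate 2.

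The other Arid genes have other partners. Arid3a, a transcription factor tied to trophectoderm genes in the mouse embryo, read 2.26 and 2.20 RPKM with miR-294, 5.16 and 5.64 with siMbd2 and 4.62 and 4.06 in CTR. The miR-294 pair was lowest, with log2 -0.72 against CTR (adjusted p = 0.00021) and -0.99 ± 0.0938 against siMbd2 (adjusted p = 6.41e-05). Its paralogue Arid3b passed no test, at 24.7 and 23.4 RPKM with miR-294, 23.0 and 22.9 with siMbd2 and 25.2 and 23.3 in CTR. Arid4a and Arid4b encode retinoblastoma-binding subunits of the Sin3 deacetylase complex, and both have matches in their 3′ UTRs. Arid4a read 9.01 and 8.42 RPKM with miR-294, 13.9 and 13.7 with siMbd2 and 13.8 and 16.2 in CTR (log2 -0.71, adjusted p = 0.000178). Arid4b read 12.2 and 11.5 RPKM with miR-294, 15.8 and 15.5 with siMbd2 and 15.7 and 16.4 in CTR (log2 -0.41, adjusted p = 0.000988). Arid5a, an RNA-binding member, read 1.77 and 2.41 RPKM with miR-294, 2.43 and 2.51 with siMbd2 and 5.01 and 3.54 in CTR (log2 -0.77 with miR-294, adjusted p = 0.00203; -0.59 with siMbd2, adjusted p = 0.0171, and 0.0841 without siMbd2 replicate 1). Arid5b, a partner of the demethylase Phf2, fell by 0.20 with miR-294 (adjusted p = 0.0216), a call that ended under both other scalings and without either miR-294 library.

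Chromodomain helicases: of 10 Chd entries, 2 (20%) rose and 5 (50%) fell with miR-294, beside 27.7% and 36.8% of all tested genes. Chd1 is in both counts, with entry 1 among those that rose and entry 2 among those that fell. After median-of-ratios scaling 4 rose and 3 fell, and after quantile normalization 3 rose and 4 fell. Without miR-294 replicate 1 or either siMbd2 library 1 rose. Without CTR replicate 1 or miR-294 replicate 1, 3 fell, and without miR-294 replicate 2, 2 fell. Chd3, an alternative ATPase of the NuRD complex, read 7.50 and 6.58 RPKM with miR-294, 13.6 and 11.1 with siMbd2 and 16.1 and 14.4 in CTR. Its log2 change was -1.01 with miR-294 (SE 0.11, adjusted p = 7.93e-05), and the siMbd2 change of -0.29 missed the threshold as deposited (adjusted p = 0.0727) and passed it under both other scalings. Chd5, a further Chd3 relative, was low, at 2.72 and 2.06 RPKM with miR-294, 1.45 and 1.49 with siMbd2 and 1.81 and 1.56 in CTR (log2 0.33, adjusted p = 0.0317; 0.246 without miR-294 replicate 1). Chd9 read 10.4 and 10.7 RPKM with miR-294, 11.4 and 11.5 with siMbd2 and 13.9 and 14.3 in CTR (log2 -0.39, adjusted p = 0.00129, and -0.28 with siMbd2, adjusted p = 0.0169; 0.113 without siMbd2 replicate 1). Chd2 read 19.9 and 18.1 RPKM with miR-294, 19.5 and 17.9 with siMbd2 and 25.12 and 21.97 in CTR (log2 -0.29 and -0.31, adjusted p = 0.0172 and 0.0257; 0.132 and 0.187 without replicate 2 of the treated group). Chd7, an enhancer-binding remodeler, fell by 0.22 with miR-294 (adjusted p = 0.038), and this call ended under both other scalings and without either miR-294 library.

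Chd1, which binds trimethylated H3K4 and helps keep mouse ESC chromatin open, is on 2 entries that disagree. Entry 1 read 38.3 and 38.5 RPKM with miR-294, 33.0 and 34.2 with siMbd2 and 26.1 and 28.6 in CTR, and entry 2 read 20.8 and 21.1 with miR-294, 23.8 and 25.4 with siMbd2 and 24.02 and 27.20 in CTR. With miR-294 the first rose by a log2 of 0.48 (adjusted p = 0.000296) and the second fell by 0.28 (adjusted p = 0.0121; 0.0706 without miR-294 replicate 1). The table does not say which transcripts each entry covers, so a change of Chd1 as a whole is uncertain.

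**Figure D3:**
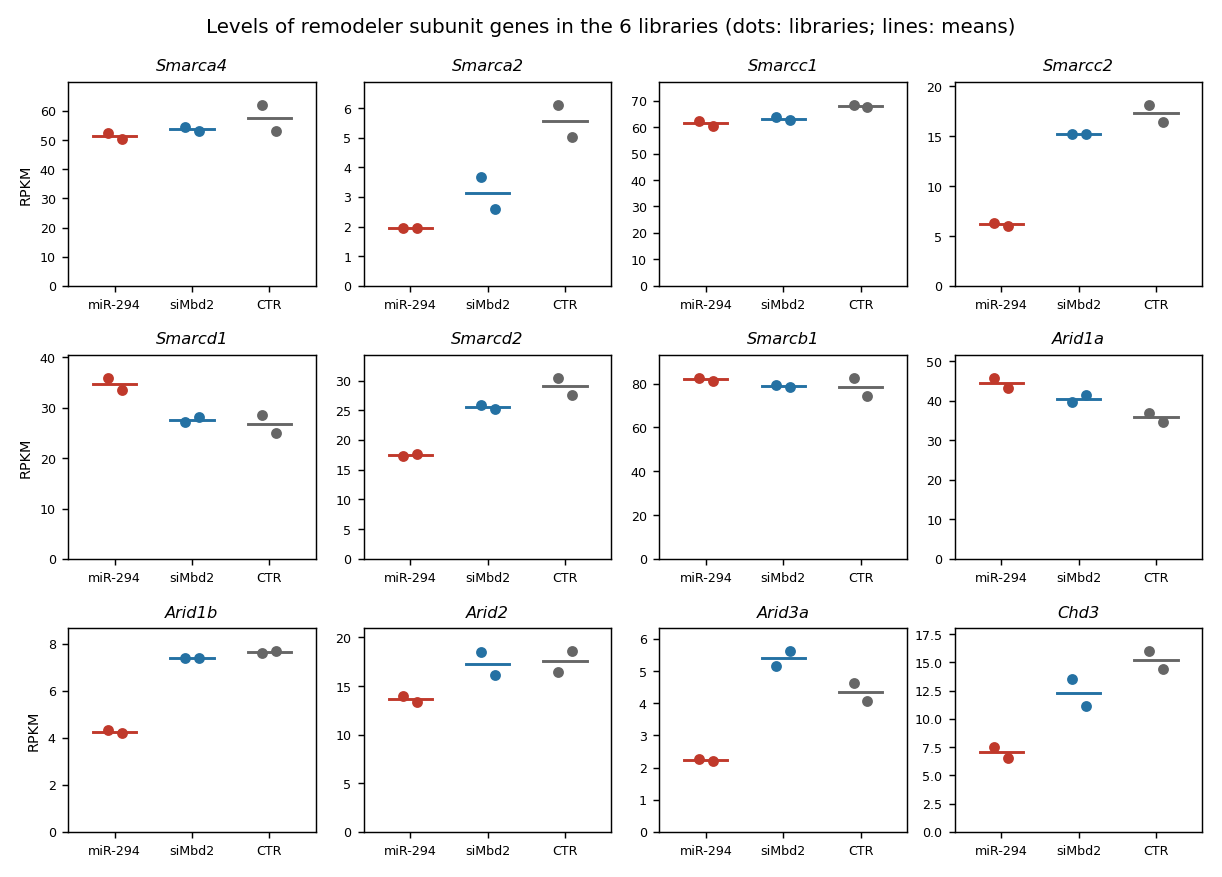
RPKM (vertical axis, from 0) of 12 remodeler subunit genes in the miR-294, siMbd2 and CTR libraries. Dots are libraries and lines group means (n = 2); Smarcc2, Smarca2, Smarcd2 and Arid1b are lowest with miR-294, where Smarcd1 and Arid1a are highest.

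Set directly against siMbd2, miR-294 had 12 members higher (12.1%) and 36 lower (36.4%), where 21.9% of all tested genes were higher and 35.5% lower. At 1.5-fold 1 member was higher (Kdm2b) and 11 were lower, beside 5.15% and 14.3% of all genes. After median-of-ratios scaling 19 were higher and 28 lower, and after quantile normalization 20 and 26. Without 1 library, 6 to 17 were higher and 22 to 42 lower, the low values without siMbd2 replicate 1. The Prmt family had 4 of 7 higher and 1 lower with miR-294, and the Arid family 0 of 9 higher and 6 lower. The Kdm family had 2 of 16 higher and 6 lower, and the Hdac family 0 of 8 higher and 4 lower. After either other scaling 4 Kdm members were higher and 5 lower, and 1 was higher without any one of the 4 treated libraries and 3 lower without siMbd2 replicate 2. Without miR-294 replicate 2 or siMbd2 replicate 1, 2 Prmt members were higher, and the 1 lower lost its call without miR-294 replicate 1 or siMbd2 replicate 1 and after quantile normalization. In the Arid family Arid1a was higher under both other scalings and without either CTR library, and in the Hdac family Hdac11 after quantile normalization. The lowest differences were those of Smarcc2 (-1.18), Kmt2e (-1.17), Arid3a (-0.99) and Kat2b (-0.87), and the highest was that of Kdm2b (0.80). At an unadjusted p under 0.05, limma on the 6 libraries, with no further scaling, also gave 0 members for each family count of 0 printed here, except that 1 Kdm member was lower with siMbd2 than in CTR. The 5 differences from Smarcc2 to Kdm2b each held under every alternative in which the gene was tested. Arid3a, at a mean of 3.99 RPKM, was not tested with a minimum mean of 5 RPKM.

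**Figure D4:**
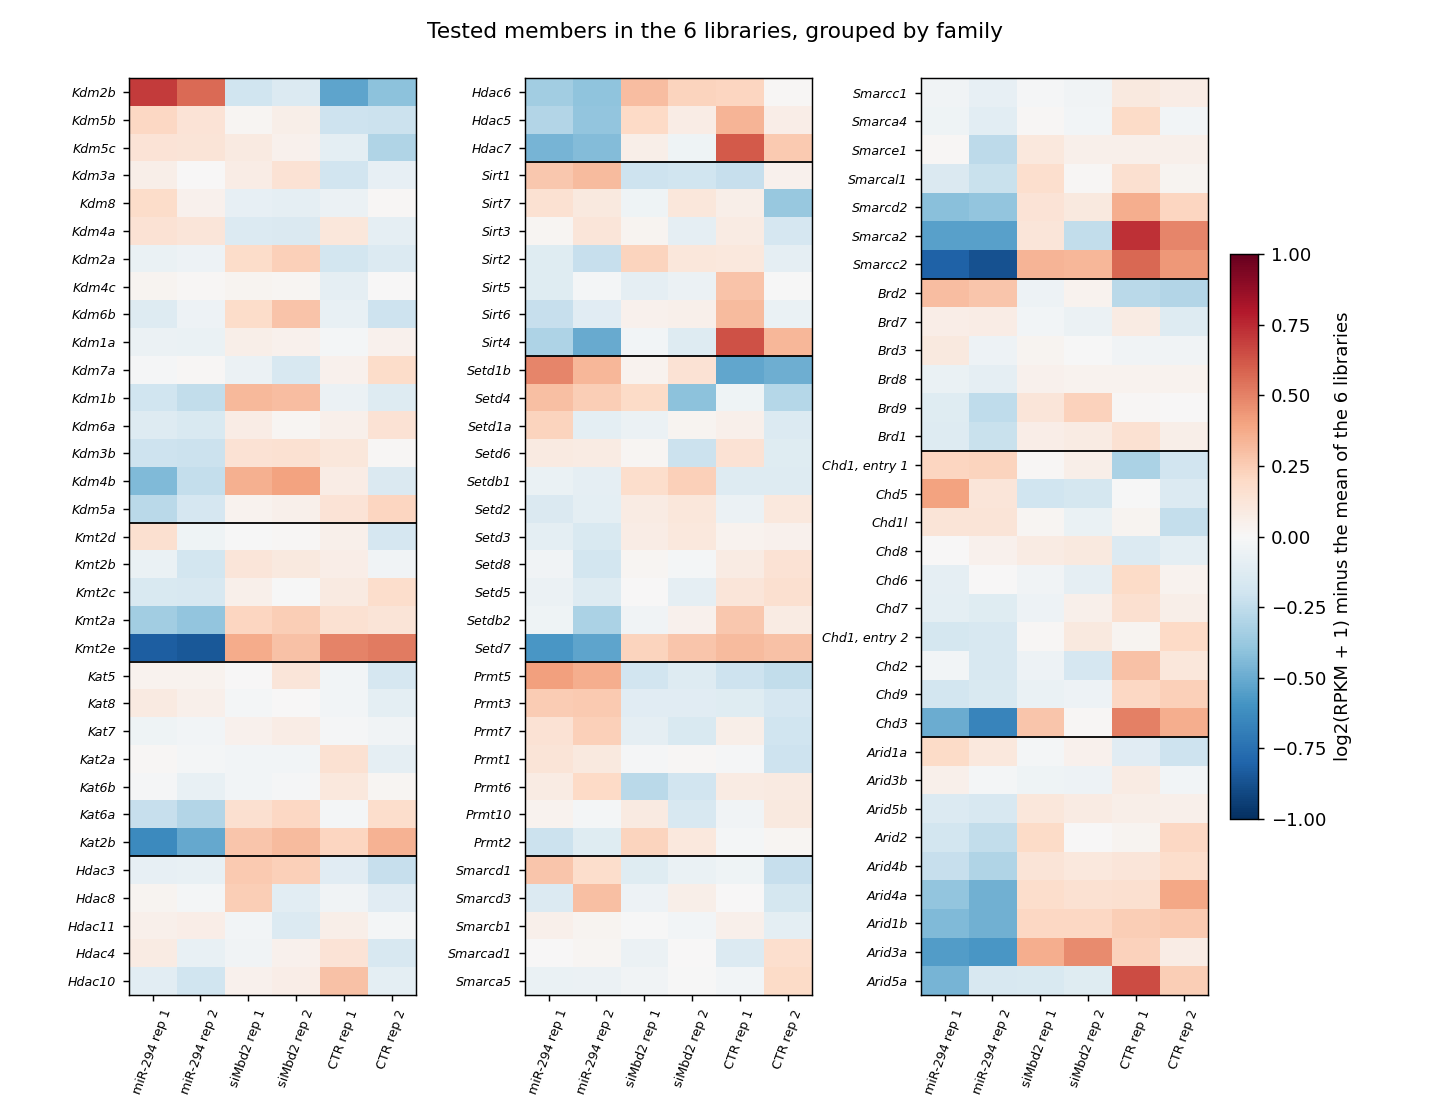
Level of 98 of the 99 tested members (rows, by family) in the 6 libraries (columns), as log2(RPKM + 1) minus the member's mean over the libraries. Smarcc2 and Kmt2e are low in both miR-294 columns, Kdm2b is high in them, and Hdac3 is high in both siMbd2 columns.

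Matches to the miR-294 seed were counted in the longest annotated 3′ UTR of every tested gene. Of the 99 members, 19 (19.2%) held at least 1 match, against 21% of the 11228 tested genes with a UTR; 3 had AGCACTTA, 10 AGCACTT and 6 only GCACTTA. With miR-294, 13 of the 19 fell (68.4%) and 0 rose, and the median log2 change of the 19 was -0.29. Of the 13 calls, those of Arid4a, Arid4b, Kat2b, Kdm5a, Kmt2a, Sirt4 and Smarcc2 held under every alternative tried. The calls of Arid2, Kat6a and Kmt2c ended after quantile normalization, and that of Smarcc1 after median-of-ratios scaling. Those of Chd2 and Setd5 ended without miR-294 replicate 2. Among the 80 members with none of these letters, 15 rose and 23 (28.7%) fell, with a median of -0.013. Over all tested genes the share that fell was 51% with a match and 33.4% without, with medians of -0.24 and -0.033. UTR length moved with the matches, with a median of 2322 bases in members with a match and 1064 bases in those without, and its part in the difference was not tested. With siMbd2 the same 19 members had a median of -0.11, with 2 higher and 3 lower, and the other 80 a median of 0.029, with 12 higher and 5 lower. The matches did not go with every fall: Hdac4 has the 8-base match and did not pass the test, while Kmt2e, Smarca2, Chd3, Hdac7 and Setd7 fell by 0.86 or more and have none.

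**Figure D5:**
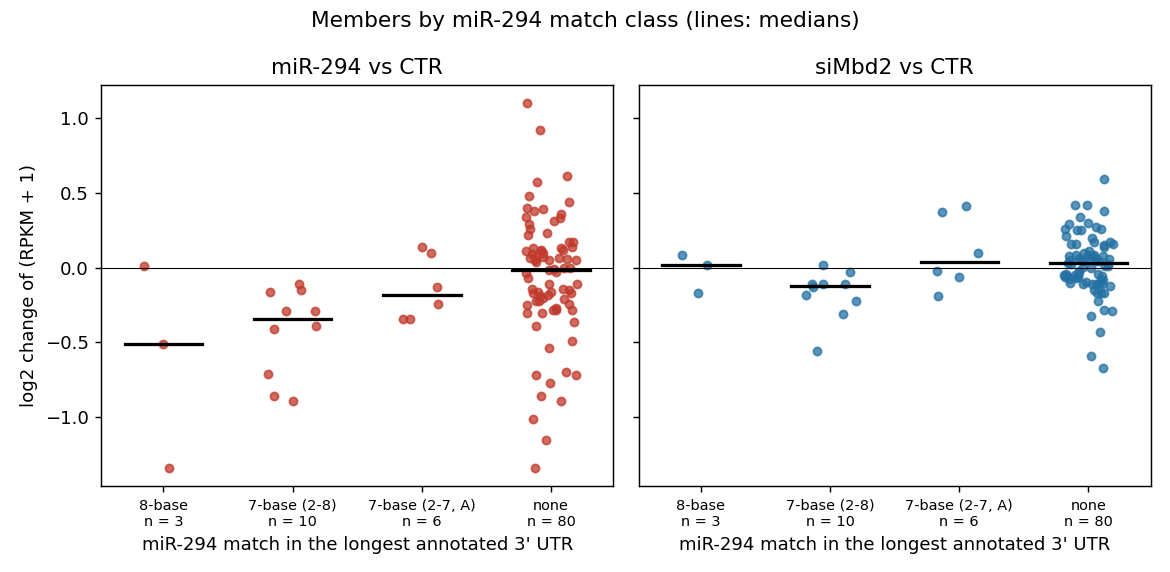
Log2 change of RPKM + 1 (vertical axis) of the tested members by class of miR-294 seed match in the 3′ UTR (horizontal axis), for miR-294 vs CTR and siMbd2 vs CTR. Each dot is a member and bars are medians; with miR-294 the 3 members with the 8-base match have a median of -0.51 and the 80 without a match one of -0.013.

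Chromatin genes whose names fall outside the rule were taken from a list of 83 partners and enzymes, of which 72 were tested. The values are as deposited, and how the calls of these genes fared under the alternatives is not given here. With miR-294, 23 rose and 24 fell (median log2 -0.028), and with siMbd2, 12 rose and 10 fell (median 0.0072). The shares over all tested genes were 27.7% higher and 36.8% lower for miR-294, and 19.5% higher and 14.9% lower for siMbd2. By group, 7 of 16 further methyltransferases rose and 5 fell with miR-294, and 7 of 25 remodelers and their partners rose and 8 fell. The partner of Prmt5 in the methylosome, Wdr77, read 122 and 122 RPKM with miR-294, 101 and 105 with siMbd2 and 71.3 and 60.9 in CTR (log2 0.88 and 0.63, adjusted p = 2.53e-05 and 0.000934). Wdr5 is a subunit shared by the Kmt2 and Setd1 complexes. It read 100 and 99.7 RPKM with miR-294, 84.1 and 82.9 with siMbd2 and 75.4 and 70.4 in CTR. Its log2 change was 0.45 with miR-294 (limma, adjusted p = 0.000175) and 0.19 with siMbd2 (adjusted p = 0.0296). Ash2l, of the same core, read 122 and 119 RPKM with miR-294, 85.9 and 89.7 with siMbd2 and 122 and 123 in CTR. Its fall with siMbd2 was 0.47 (limma, adjusted p = 0.000728). Rbbp5, a further subunit, fell with miR-294 (log2 -0.20, adjusted p = 0.0142) and with siMbd2 (-0.27, adjusted p = 0.00857). Dpy30, another, rose with miR-294 (log2 0.22, adjusted p = 0.00518) and was not called with siMbd2.

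The methyltransferases that fell most were Whsc1, for H3K36, and Suv39h1, for H3K9. Whsc1 (Nsd2) read 7.29 and 6.99 RPKM with miR-294, 16.6 and 17.0 with siMbd2 and 17.8 and 19.4 in CTR (log2 -1.27, adjusted p = 4.49e-06). Suv39h1 read 7.72 and 7.79 RPKM with miR-294, 17.1 and 17.7 with siMbd2 and 20.01 and 18.84 in CTR (log2 -1.22, adjusted p = 4.21e-06). Jarid2, a Polycomb cofactor related to the demethylases, read 199 and 187 RPKM with miR-294, 134 and 144 with siMbd2 and 108 and 113 in CTR (log2 0.79 and 0.32, adjusted p = 1.53e-05 and 0.00587). Dpf1, a BAF subunit known from neurons, read 10.6 and 9.84 RPKM with miR-294, 7.35 and 8.28 with siMbd2 and 4.52 and 4.72 in CTR (adjusted p = 2.91e-05 with miR-294; log2 0.65 with siMbd2, adjusted p = 0.00142).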

How the data were processed

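Per the file headers, the authors deposited 1 table of RPKM values, with 2 decimals, for 6 libraries and 13743 entries, and a fold ratio of mean RPKM over CTR for each treatment. Recomputed ratios of means lay within 0.02 of the deposited ones for 102 of 102 members in both treatments. The submitters' processing notes name CASAVA 1.7, STAR 2.3.0, Cufflinks and the mm10 build; annotation and counting rule: not given in the sources used here. Each sample is described as an average over a pair of lanes. RPKM values carry no counts, so read depth and counting error are unknown.

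Values were tested as log2(RPKM + 1), which understates the change of low genes, with limma 3.58.1 (R 4.3.3): 1 model of 3 groups, intensity trend, genes averaging 1 RPKM or more, two-sided tests with Benjamini-Hochberg adjustment over the 11428 genes of a contrast, calls at an adjusted p under 0.05. There were 3 residual and 5.38 prior degrees of freedom. The smallest p of an exact permutation test between groups of 2 is 0.333, so each call rests on limma's shared spread. The procedure was tested on simulated data.

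The rule for genes named took, in every contrast, the 12 called members with the highest and the 12 with the lowest log2 change, counting those whose libraries did not overlap and whose higher group averaged at least 2 RPKM, the highest member of each family, and a set list of 32 entries. It gave 59 entries; 1 of them is not reported here. Members given by value outside it were chosen after their values were seen: Prmt8, Smarca1, Hdac9, Kmt2c, Kdm3a, Kdm3b, Kdm5a, Kat6a, Hdac4, Hdac5, Hdac8, Hdac10, Hdac11, Brd1, Brd3, Brd9, Setd3, Setd4, Setdb2, Smarcd2, Arid2, Arid4b and the genes outside the name rule. The members and lists were chosen with earlier results of these data known. Seed matches were sought with Python 3.11.15 in GENCODE vM21 3′ UTRs. Alternatives changed the pseudocount, filter, scaling, trend, libraries and replicate block, 1 at a time.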

Additional observations from a re-analysis of the deposited data

How the results depend on the processing

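Counts of called members against those given above moved by over 1.5 times as follows. The cause was not tested except where fewer libraries were used, a fold was required or the minimum mean was raised. For miR-294 vs CTR, 24 rose after median-of-ratios scaling and 24 after quantile normalization, against 15 as deposited. With a change of at least 1.5-fold required, 3 rose and 13 fell with miR-294 and 1 rose and 2 fell with siMbd2 against CTR, and miR-294 had 1 higher and 11 lower than siMbd2. For siMbd2 vs CTR, 5 fell with a minimum mean of 5 RPKM and 14 fell after quantile normalization, against 8. Arid5a, Hdac7 and Smarca2, called lower as deposited, were left out of the test by that minimum. For miR-294 vs siMbd2, 19 and 20 were higher after median-of-ratios scaling and quantile normalization, against 12. Without 1 library at a time, 12 to 24 rose and 22 to 45 fell for miR-294 vs CTR, 3 to 22 rose and 0 to 16 fell for siMbd2 vs CTR, and 6 to 17 were higher and 22 to 42 lower for miR-294 vs siMbd2; the lone sample left in a group was assumed to vary like the others. Prmt1 with miR-294 was the one call whose sign turned, to -0.067 after quantile normalization.

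Replicate numbers do not show a pairing: the deviations of same-numbered libraries correlated at 0.119 between CTR and miR-294, 0.132 between CTR and siMbd2 and 0.0218 between miR-294 and siMbd2. With the replicate number as a block, 17 rose and 37 fell for miR-294 vs CTR, 14 rose and 9 fell for siMbd2 vs CTR, and 13 were higher and 37 lower for miR-294 vs siMbd2, and all 51, 22 and 48 calls were kept. With 2 libraries a group and unknown depth, a change that missed the threshold is not shown to be absent.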
